A study of Mus musculus with 6 samples.

Results

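The MHC class II genes and their regulator Ciita were followed through 6 bulk RNA libraries of mouse bronchoalveolar lavage cells. The 10 genes, of 40564 in the count table, were taken by symbol: Ciita, Cd74, H2-Aa, H2-Ab1, H2-Eb1, H2-DMa, H2-DMb1, H2-DMb2, H2-Oa and H2-Ob. MHC class II molecules carry peptides from engulfed material to the surface of macrophages, dendritic cells and B cells, where CD4 T cells read them. CIITA, the protein of Ciita, does not bind DNA itself but joins the RFX, CREB and NF-Y factors that sit on the X and Y boxes of class II promoters. Resting alveolar macrophages are known for low class II levels, and interferon gamma is the best known inducer of Ciita in macrophages.

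The cells were immune cells recovered from the lung by lavage, without any treatment, and total RNA was extracted with Trizol. The groups were Cis Stat6 KO (labelled a double knockout), Cis KO and WT, with 2 libraries each. Cis is encoded by Cish and dampens signalling from cytokine receptors, and STAT6 is the transcription factor that carries interleukin 4 and interleukin 13 signals. Both knockout groups share the loss of Cis, so the comparison of Cis Stat6 KO with Cis KO is the one in which Stat6 is the labelled difference. No strain, age or construction of the alleles was found in the labels. Neither do the labels say that the 2 libraries of a group came from separate animals, so p-values measure only the spread between these samples, which may be technical.

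Library totals lay between 50762354 and 65937118 counts. The second Cis KO library stood apart. It had 15855 genes with a count, against 19641 to 20431 in the other 5, and haemoglobin genes took 3.29% of its counts, against at most 0.0366% elsewhere. CT010467, an rRNA-like gene, took 9.77% of the counts of the second Cis KO library and 7.87% of those of the second Cis Stat6 KO library. In the other libraries it took 1.38% to 5.44%. The 10 genes' fold changes are given below with and without the second Cis KO library where it moved them most. Stat6 had 31.6 and 25.5 CPM (counts per library size, corrected by TMM factors) in Cis Stat6 KO, against 264 and 221 CPM in Cis KO and 233 and 227 CPM in WT. Cish had 1.72 and 5.04 CPM in Cis Stat6 KO and 4.34 and 3.52 CPM in Cis KO, against 46.2 and 56.2 CPM in WT. The labels and the targeted genes therefore point the same way in all 6 libraries. Alveolar macrophage genes (Siglecf, Marco, Chil3 and 7 others) summed to 30203 and 39371 CPM in Cis Stat6 KO, 18613 and 14044 CPM in Cis KO and 14611 and 22126 CPM in WT, with none of the 10 at 0 in any library. Most of that sum was Chil3; the other 9 summed to 7925 and 8243 CPM in Cis Stat6 KO, 7043 and 7163 CPM in Cis KO and 5834 and 7115 CPM in WT. Of the list edgeR called 0 in any comparison, while in Cis Stat6 KO against Cis KO DESeq2 called Chil3, Fabp4 and Marco higher and Ear2 lower, and in Cis KO against WT it called Car4 higher. At an unadjusted p under 0.05 edgeR counted 2 of the 10 in Cis KO against WT, 4 in Cis Stat6 KO against Cis KO and 3 in Cis Stat6 KO against WT.

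Of the 10 genes, 8 lie on chromosome 17 (build mm10). H2-Oa, H2-DMa, H2-DMb2, H2-DMb1, H2-Ob, H2-Ab1, H2-Aa and H2-Eb1 follow each other there between positions 34092340 and 34316674. Only H2-Aa of these 8 is on the minus strand. Ciita lies at chr16:10480059-10526426 on the plus strand. From RefSeq's promoter table (GRCm38.p6, 250 bases before to 50 after each annotated start), entries of 7 of the 10 genes were used. Ciita, Cd74 and H2-Ab1 are named only. The following stretches, each with 40 bases before the Y box match, are shown because they hold the boxes on which CIITA's partner factors sit. Capitals mark the Y box letters TGATTGG, the X box core letters GCAAC and, in H2-Aa, the palindrome TGACGTCA, a cyclic AMP response element.
H2-Aa, chr17:34287862-34287913, minus strand: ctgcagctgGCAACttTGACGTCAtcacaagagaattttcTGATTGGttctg
H2-Eb1, chr17:34305766-34305817, plus strand: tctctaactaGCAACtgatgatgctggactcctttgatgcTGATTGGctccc
H2-DMb2, chr17:34145117-34145168, plus strand: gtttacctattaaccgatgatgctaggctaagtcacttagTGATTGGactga
H2-Oa, chr17:34092294-34092345, plus strand: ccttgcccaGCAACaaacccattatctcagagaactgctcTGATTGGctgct
H2-Ob, chr17:34238806-34238857, plus strand: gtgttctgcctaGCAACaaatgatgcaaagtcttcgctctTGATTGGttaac

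Letters were searched on both strands of the 300-base promoters, and the motifs were chosen with the class II promoters in view. TGATTGG was found in 6 of the 7 genes used (not H2-DMa), against 7.82% of all 32851 promoters in the table. GCAAC was in 5 of the 7 genes, against 35.2% of all promoters, and in H2-DMa it was on the other strand, 7 bases before the start. GCAAC 20 to 40 bases before TGATTGG, counted between first bases, was found in H2-Aa, H2-Eb1, H2-Oa and H2-Ob, with 28 to 31 bases between them, and in 0.204% of all promoters. In H2-DMb2 the place of the X box core held other letters. The stretch of H2-DMb1 matched that of H2-DMb2 at 46 of 52 bases. It lies in the first exon of the GENCODE transcript and is not printed. The printed H2-DMb2 stretch lies inside the gene as counted, which runs from 34143307 to 34151555. That of H2-Oa ends at 34092345, just past the start of the gene as counted at 34092340. A match describes letters and does not show that a factor was bound.

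**Figure D1:**
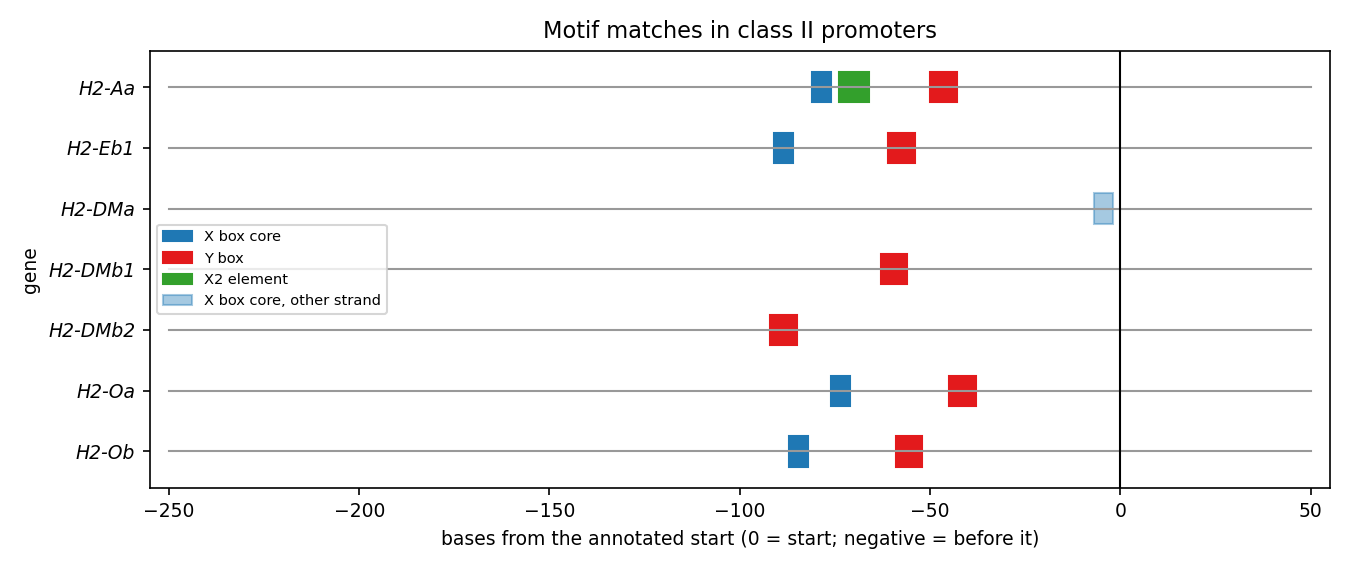
Motif matches in the promoters of 7 class II genes, by distance in bases from the annotated start. Boxes mark the Y box, the X box core and the X2 element (TGACGTCA in the text); the Y box lies 45 to 92 bases before the start in 6 genes, and 4 of them have an X box core 28 to 31 bases before it.

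Between genes, levels are compared in FPKM, the authors' counts scaled by gene length and library total. Cd74, the invariant chain that fills the groove of new class II molecules, had the highest FPKM of the 10 genes in all 6 libraries. It had 68.9 and 38.0 FPKM in Cis Stat6 KO, 189 and 207 FPKM in Cis KO and 112 and 68.1 FPKM in WT. H2-DMb1 and H2-DMa came next, ahead of H2-Ab1, H2-Aa and H2-Eb1. H2-DMb2 was seventh in each library. Ciita, H2-Oa and H2-Ob were at or under 3.30 FPKM throughout. Ciita, as a regulator, was at 0.15 and 0.14 FPKM in Cis Stat6 KO, 0.42 and 0.43 FPKM in Cis KO and 0.08 and 0.09 FPKM in WT.

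**Figure D2:**
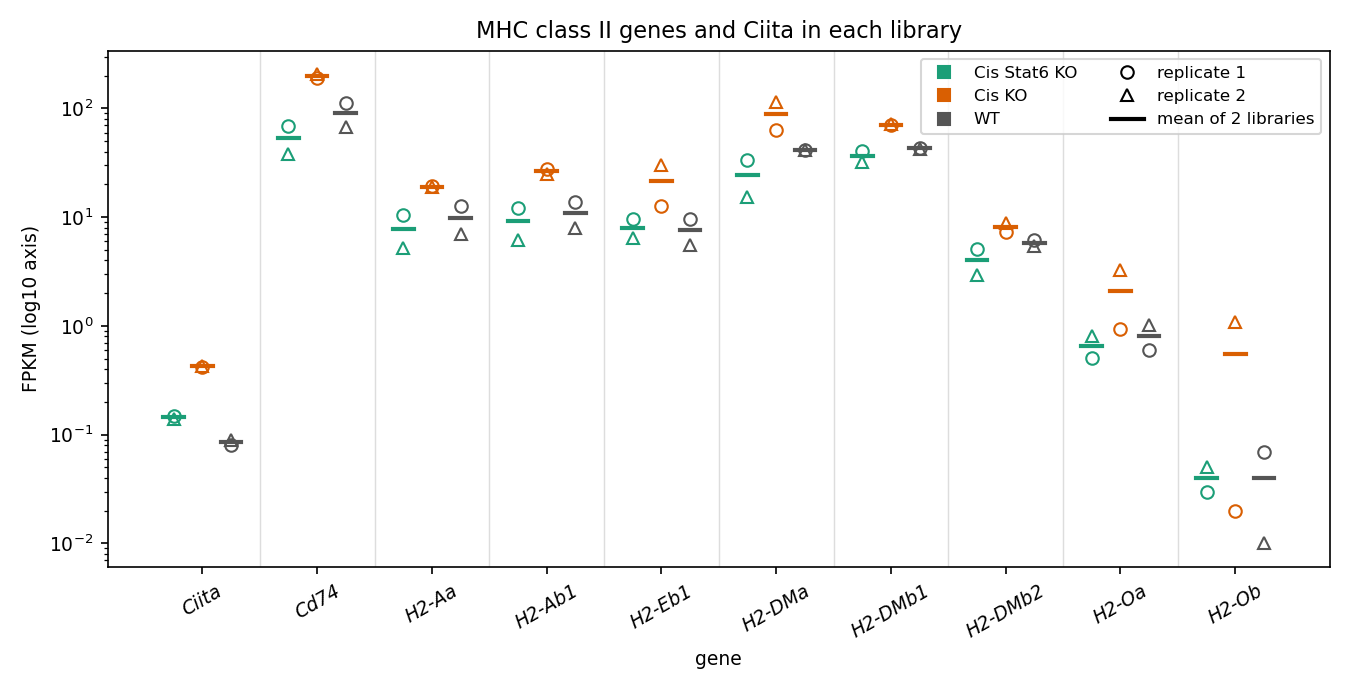
FPKM (log10 axis) of the 10 genes in each library, with circles for replicate 1, triangles for replicate 2 and bars for the mean of 2 libraries. The Cis KO libraries sit above both other groups for 8 genes, while H2-Oa and H2-Ob are high in the second Cis KO library only.

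The 10 genes averaged higher in Cis KO than in WT and lower in Cis Stat6 KO than in Cis KO, but none passed the test across all genes. In Cis KO against WT, 0 of the 10 had an adjusted p under 0.05 (edgeR's quasi-likelihood test, Benjamini-Hochberg over 16765 genes), where 0.274% of all genes did. At an unadjusted p under 0.05, edgeR counted 7 of the 10, against 11.1% of all genes, and DESeq2 called 5 of the 10 after adjustment, against 3.17% of its genes. With no filter on low counts edgeR called 7 of the 10, against 3.9% of all genes. Both Cis KO libraries lay above both WT libraries for 8 of the 10 genes, as they did for 21.4% of all genes tested. The median log2 fold change of the 10 was 1.33, against -0.05 over all genes tested. In Cis Stat6 KO against Cis KO, edgeR called 0 of the 10, against 0.358% of all genes, and counted 8 at an unadjusted p under 0.05, against 18.3%. DESeq2 called 8 of the 10, against 8.76% of its genes, and edgeR with no filter called 7, against 7.02%. With limma on log2(FPKM + 1), which tested 8 of the 10, Cd74 was the one gene called, against 1.52% of its genes. Both Cis Stat6 KO libraries lay below both Cis KO libraries for 8 of the 10 genes, against 22.5% of all genes. The median of the 10 was -1.61 on the log2 scale, against 0.05 over all genes tested. These comparisons share the Cis KO libraries, so a high Cis KO value enters both.

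In Cis Stat6 KO against WT, edgeR called 0 of the 10, against 0.131% of all genes, counted 0 at an unadjusted p under 0.05, against 5.36%, and DESeq2 also called 0, against 1.9%, as did edgeR with no filter, against 1.47%. Both Cis Stat6 KO libraries lay above both WT libraries for 1 of the 10 genes, against 23.3% of all genes, and below them for 4, against 23.5%. The median log2 fold change was -0.20, against -0.0027 over all genes. All 10 genes passed edgeR's filter on low counts. In these bulk samples, fewer cells of a type and less RNA per cell cannot be told apart.

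**Figure D3:**
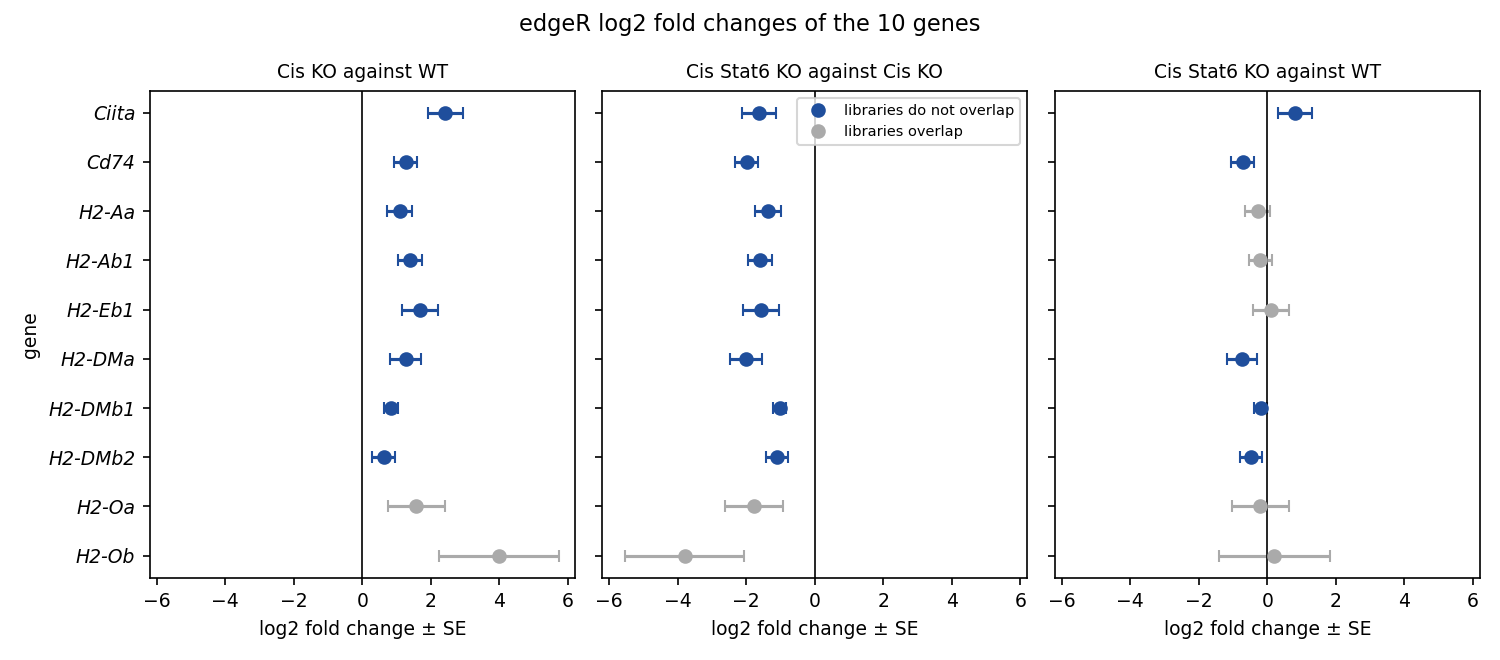
edgeR log2 fold changes with standard errors (SE) of the 10 genes in the 3 comparisons, blue where the 2 libraries of one group lie wholly above or below those of the other. In Cis KO against WT the values run from 0.63 to 3.99, in Cis Stat6 KO against Cis KO from -3.79 to -1.02, and in Cis Stat6 KO against WT from -0.74 to 0.80.

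Ciita, the regulator, had 103 and 76 counts (1.49 and 1.56 CPM) in Cis Stat6 KO, 261 and 232 counts (4.08 and 5.30 CPM) in Cis KO and 47 and 64 counts (0.811 and 0.935 CPM) in WT. The libraries fell in 3 separate levels, with Cis KO highest, Cis Stat6 KO between and WT lowest, and no overlap between groups. The log2 fold change of Cis KO against WT was 2.42 ± 0.51 (SE, adjusted p = 0.204 by edgeR), or 5.36-fold. Cis Stat6 KO against Cis KO gave -1.62 ± 0.49 (adjusted p = 0.208 by edgeR), and Cis Stat6 KO against WT gave 0.80 ± 0.49 (adjusted p = 1.0 by edgeR). The gene overlaps the antisense gene Dexi, which had 358 and 266 counts in Cis Stat6 KO, 501 and 473 in Cis KO and 314 and 351 in WT; 0.269% of the 50-base words of Ciita transcripts lie in Dexi transcripts, and the part of Dexi reads in the Ciita counts was not tested. Among the 8 genes that separate Cis KO from WT, Ciita is the one whose Cis Stat6 KO libraries both lay above WT.

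Cd74, which lies outside the MHC on chromosome 18, had 119 and 76.3 CPM in Cis Stat6 KO, 324 and 448 CPM in Cis KO and 198 and 122 CPM in WT. Both Cis Stat6 KO libraries were below both WT libraries, by a small gap of 119 to 122 CPM, and both Cis KO libraries were above all others. Cis KO against WT gave a log2 fold change of 1.27 ± 0.33 (adjusted p = 0.344 by edgeR). Cis Stat6 KO against Cis KO gave -1.98 ± 0.34 (adjusted p = 0.0885 by edgeR), the lowest adjusted p of the 10 genes in any comparison.

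The classical chains form the peptide-binding molecules I-A (H2-Aa with H2-Ab1) and I-E (H2-Ea with H2-Eb1). H2-Aa had 41.0 and 23.8 CPM in Cis Stat6 KO, 75.3 and 92.3 CPM in Cis KO and 50.4 and 28.4 CPM in WT. H2-Ab1 had 32.4 and 19.0 CPM in Cis Stat6 KO, 72.1 and 83.5 CPM in Cis KO and 37.1 and 22.1 CPM in WT. Both chains of I-A kept Cis KO above the other groups, and Cis Stat6 KO and WT overlapped. Their log2 fold changes of Cis KO against WT were 1.09 ± 0.37 for H2-Aa and 1.39 ± 0.35 for H2-Ab1 (adjusted p = 0.428 and 0.318 by edgeR). Those of Cis Stat6 KO against Cis KO were -1.37 ± 0.37 for H2-Aa and -1.60 ± 0.35 for H2-Ab1 (adjusted p = 0.180 and 0.132 by edgeR).
H2-Eb1 had 19.1 and 14.9 CPM in Cis Stat6 KO, 25.3 and 76.1 CPM in Cis KO and 19.9 and 11.6 CPM in WT. Its second Cis KO library was 3.01 times the first, so the first lay only just above WT. The ratio of H2-Eb1 to H2-Ab1 in FPKM was 0.778 and 1.04 in Cis Stat6 KO, 0.463 and 1.20 in Cis KO and 0.709 and 0.691 in WT. H2-Ea, the partner chain of H2-Eb1 in I-E, had 0 counts in all 6 libraries, so no library held counts of both I-E chains. H2-Eb2 had at most 0.242 CPM.

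H2-DMa and H2-DMb1 or H2-DMb2 pair as H2-M, which exchanges the invariant chain remnant for peptide. H2-DMa had 119 and 63.1 CPM in Cis Stat6 KO, 223 and 511 CPM in Cis KO and 153 and 152 CPM in WT. H2-DMb1 had 69.9 and 65.0 CPM in Cis Stat6 KO, 120 and 155 CPM in Cis KO and 77.5 and 75.9 CPM in WT. H2-DMb2 had 9.26 and 6.21 CPM in Cis Stat6 KO, 13.1 and 20.1 CPM in Cis KO and 11.4 and 10.2 CPM in WT. For all 3 genes Cis KO was highest and Cis Stat6 KO lowest without overlap. Their log2 fold changes of Cis KO against WT were 1.27 ± 0.44 for H2-DMa, 0.84 ± 0.19 for H2-DMb1 and 0.63 ± 0.33 for H2-DMb2, and of Cis Stat6 KO against Cis KO -2.01 ± 0.45 for H2-DMa, -1.02 ± 0.19 for H2-DMb1 and -1.10 ± 0.33 for H2-DMb2, with no adjusted p by edgeR under 0.104. The 2 beta genes share sequence: 27.2% of the 50-base words of H2-DMb1 transcripts also occur in H2-DMb2, so their counts may be partly exchanged. H2-DMa overlaps the antisense gene Brd2, which had 5998 to 15958 counts a library and was lowest in the second Cis KO library, where H2-DMa was highest. No source used here says whether the libraries were stranded.

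The replicates of WT were not alike across the family. WT replicate 1 was 1.62 to 1.78 times replicate 2 for Cd74, H2-Aa, H2-Ab1 and H2-Eb1, but 1.00 to 1.12 times for the 3 H2-DM genes. In Cis Stat6 KO, replicate 1 was 1.56, 1.73 and 1.71 times replicate 2 for Cd74, H2-Aa and H2-Ab1, and 1.89 times for H2-DMa but 1.07 times for H2-DMb1. Within groups H2-DMb1 differed by at most 1.29 times between replicates.

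H2-Oa and H2-Ob form H2-O, which inhibits H2-M and is best known from B cells. Of the 50-base words of H2-Oa, 21.7% lie in the antisense gene BC051537, which had 0 counts in 5 libraries and 4 in the second WT library. H2-Oa had 0.751 and 1.38 CPM in Cis Stat6 KO, 1.34 and 6.01 CPM in Cis KO and 0.914 and 1.53 CPM in WT. H2-Ob had 13 and 18 counts in Cis Stat6 KO, 8 and 334 in Cis KO and 23 and 6 in WT. In both genes the first Cis KO library lay within the range of the other groups and the second above all of them, 4.47 and 61.0 times the first. The log2 fold changes of Cis KO against WT, 1.58 ± 0.84 for H2-Oa and 3.99 ± 1.76 for H2-Ob (adjusted p = 0.478 and 0.452 by edgeR), rest on that library. Without it they were 0.13 for H2-Oa and -0.94 for H2-Ob.

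Genes of the B cell receptor complex were high in the same library, and immunoglobulin genes were high in it and in the second Cis Stat6 KO library. Cd79a, a chain of the B cell receptor, had 0.0722 and 0.247 CPM in Cis Stat6 KO, 0 and 24.7 CPM in Cis KO and 0.224 and 0 CPM in WT. Ms4a1, Cd79a, Cd79b and Pax5 together summed to 0.188 and 1.01 CPM in Cis Stat6 KO, 0.531 and 44.7 CPM in Cis KO and 0.224 and 0.234 CPM in WT. Igkc, the kappa light chain, had 0.144 and 37.3 CPM in Cis Stat6 KO, 0.266 and 40.2 CPM in Cis KO and 0.569 and 0.380 CPM in WT. Ighm, the heavy chain of IgM, had 0.303 and 15.0 CPM in Cis Stat6 KO, 0.625 and 48.5 CPM in Cis KO and 4.54 and 2.32 CPM in WT. Jchain had 0 and 214 counts in Cis Stat6 KO, 0 in both Cis KO libraries and 6 and 0 in WT. Over 16 B cell genes the sum was 294 and 296 CPM in Cis Stat6 KO, 233 and 409.7 CPM in Cis KO and 270.4 and 260.3 CPM in WT, most of it from Cd22, which had 232 to 293 CPM in every library. Without Cd22 the sum was 0.694 and 58.4 CPM in Cis Stat6 KO, 1.58 and 165 CPM in Cis KO and 6.59 and 3.20 CPM in WT. In the second Cis Stat6 KO library, most of the 58.4 CPM came from Igkc at 37.3 CPM and Ighm at 15.0 CPM. Ms4a1, Cd79a, Cd79b and Pax5 summed to 1.01 CPM in that library. Cd74, H2-Aa and H2-Ab1 had their lowest values of the 6 libraries there. Of the 16, 9 and 4 were at 0 in Cis Stat6 KO, 10 and 2 in Cis KO and 6 and 9 in WT. In the first Cis KO library, where those 4 genes summed to 0.531 CPM and Cd79a and Cd79b were at 0, the 8 genes other than H2-Oa and H2-Ob were still above every WT and Cis Stat6 KO library, H2-DMb2 and H2-Eb1 by the least. The part of B cell RNA in the class II values of the second libraries of Cis KO and Cis Stat6 KO was not tested.

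The list of 15 dendritic cell genes summed to 33.6 and 35.6 CPM in Cis Stat6 KO, 35.9 and 69.2 CPM in Cis KO and 28.2 and 20.8 CPM in WT. The sum over this list was highest in Cis KO without overlap, by a small gap of 35.6 to 35.9 CPM. Over its 13 tested genes the median log2 fold change in Cis KO against WT was 1.15, against -0.05 over all genes tested. The list's median was -0.13 in Cis Stat6 KO against Cis KO and 0.61 in Cis Stat6 KO against WT. Of the 15, 0 and 2 were at 0 in Cis Stat6 KO, 2 and 5 in Cis KO and 1 and 4 in WT. The defining genes Flt3, Zbtb46, Xcr1 and Clec9a summed to 3.97 and 3.33 CPM in Cis Stat6 KO, 3.95 and 3.11 CPM in Cis KO and 1.31 and 1.59 CPM in WT. That sum was above WT in both knockout groups and overlapped between them. The 4 genes did not share an order of groups. Clec9a, a receptor of cross-presenting dendritic cells, had 0.477 and 0.514 CPM in Cis Stat6 KO, 2.58 and 1.48 CPM in Cis KO and 0.0518 and 0.161 CPM in WT (adjusted p = 0.267 by edgeR in Cis KO against WT). Flt3, a growth factor receptor of dendritic cells, was highest in Cis Stat6 KO, at 1.39 and 1.15 CPM, against 0.234 and 0 CPM in Cis KO and 0.0518 and 0 CPM in WT. Xcr1, a chemokine receptor, had 0.939 and 1.21 CPM in Cis Stat6 KO, 0.391 and 0 CPM in Cis KO and 1.07 and 0.511 CPM in WT, lowest in Cis KO. Zbtb46 overlapped between all groups. Among the other listed genes, Ccl22 had 11.024 and 12.461 CPM in Cis Stat6 KO and 13.003 and 22.286 CPM in Cis KO. Ccl22 had 9.351 and 6.532 CPM in WT, so Cis KO was highest without overlap. Batf3 had 2.196 and 2.529 CPM in Cis Stat6 KO and 4.673 and 17.102 CPM in Cis KO. In WT it had 3.14 and 4.939 CPM, overlapping Cis KO. Ccr7 had 3.08 and 7.75 CPM in Cis Stat6 KO, 7.88 and 11.6 CPM in Cis KO and 8.57 and 2.05 CPM in WT. Its Cis KO libraries lay above Cis Stat6 KO and overlapped WT. Fscn1 had 5.30 and 3.76 CPM in Cis Stat6 KO, 2.64 and 7.15 CPM in Cis KO and 2.35 and 2.57 CPM in WT. Its Cis KO libraries lay above WT and overlapped Cis Stat6 KO. Of the 16 B cell genes edgeR called 0 in Cis KO against WT, Cis Stat6 KO against Cis KO and Cis Stat6 KO against WT, with 2, 1 and 0 at an unadjusted p under 0.05, and DESeq2 called 1, 0 and 1 (Cd79b, which had 0.0578 and 0.288 CPM in Cis Stat6 KO, 0 and 16.1 CPM in Cis KO and 0 in both WT libraries). Of the dendritic cell genes edgeR called 0 in each, with 2, 1 and 1 at an unadjusted p under 0.05, and DESeq2 called 1, 1 and 0 (Clec9a higher in Cis KO than in WT, Batf3 lower in Cis Stat6 KO than in Cis KO). Monocyte and interstitial macrophage genes summed to 11.4 to 20.3 CPM over the 6 libraries, and T cell and innate lymphoid genes to 4.18 to 19.4 CPM. The 6 alveolar epithelium genes summed to 13.4 and 5.24 CPM in Cis Stat6 KO, 11.5 and 39.3 CPM in Cis KO and 42.4 and 37.4 CPM in WT. Sftpb, a surfactant protein gene, had 0.751 and 0.494 CPM in Cis Stat6 KO, 2.59 and 12.8 CPM in Cis KO and 4.47 and 2.82 CPM in WT. Of the 6, edgeR called 0 in any comparison, with 1, 2 and 3 at an unadjusted p under 0.05 in Cis KO against WT, Cis Stat6 KO against Cis KO and Cis Stat6 KO against WT. DESeq2 called Epcam lower in Cis KO than in WT, Sftpa1 and Sftpb lower in Cis Stat6 KO than in Cis KO, and all 3 lower in Cis Stat6 KO than in WT. The part of epithelial RNA in the class II values was not tested. Neither were the parts of dendritic cell RNA and of monocyte and interstitial macrophage RNA.

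**Figure D4:**
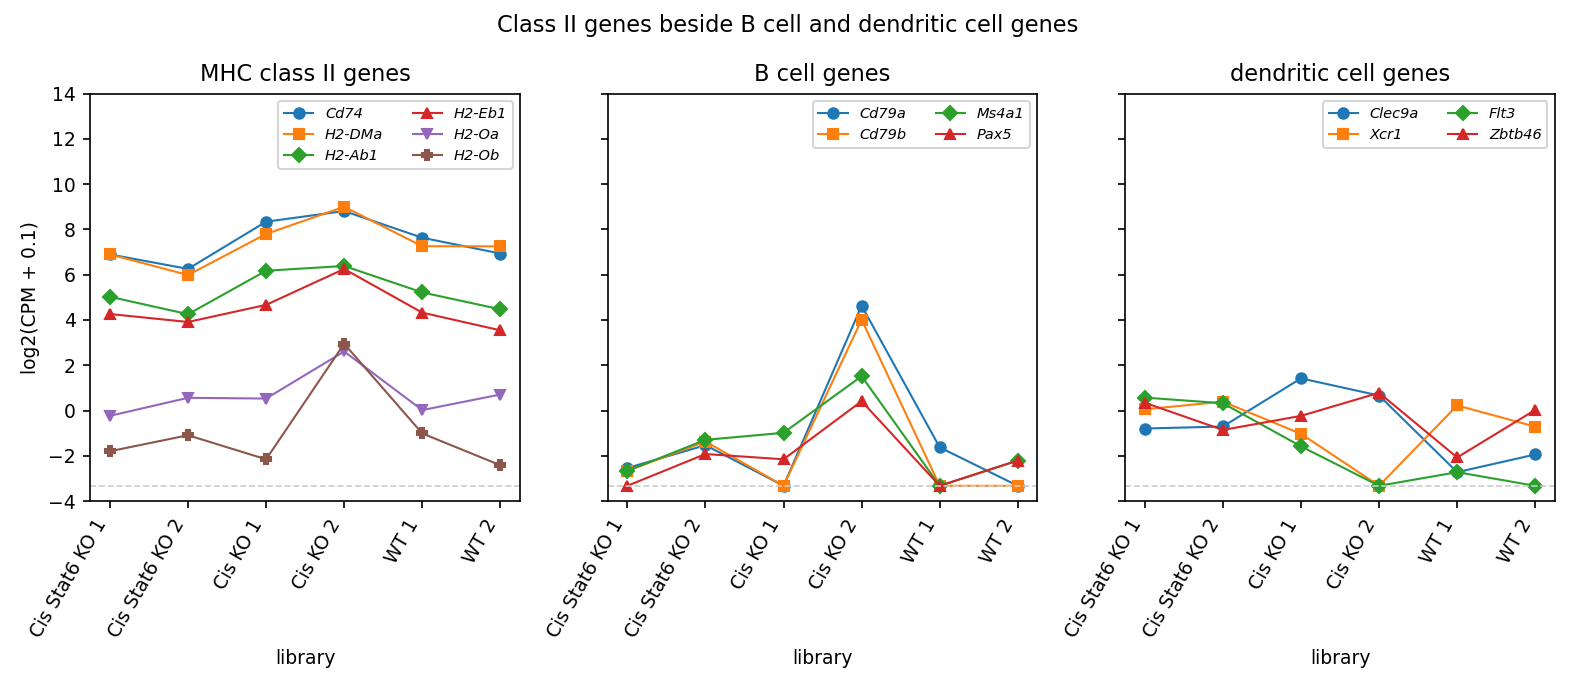
log2(CPM + 0.1) of 6 class II genes, 4 B cell genes and 4 dendritic cell genes in each of the 6 libraries; the dashed line marks 0 CPM. H2-Oa, H2-Ob and the B cell genes are high in the second Cis KO library, whereas Cd74 and H2-Ab1 are also above WT in the first.

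The 10 genes rested on the second Cis KO library to different degrees. Without the second Cis KO library, the log2 fold changes of Cis KO against WT were 2.22 for Ciita, 1.29 for H2-Ab1, 1.02 for Cd74 and 0.94 for H2-Aa, but 0.69 for H2-Eb1, 0.55 for H2-DMa and 0.29 for H2-DMb2, and edgeR called 0 of the 10, against 1.02% of all genes. In Cis Stat6 KO against Cis KO it then called Cd74, at -1.74 (adjusted p = 0.0367), and H2-DMb1, at -0.84 (adjusted p = 0.0344), against 2.68% of all genes. There H2-DMa was -1.29 without the second Cis KO library, against -2.01 with it, H2-Eb1 -0.58 against -1.57 and H2-Oa -0.35 against -1.79, while Ciita was -1.43, H2-Aa -1.22, H2-Ab1 -1.49 and H2-DMb2 -0.77. Without the first Cis KO library, edgeR called 8 of the 10 in Cis KO against WT, against 28.8% of all genes, and 10 of the 10 in Cis Stat6 KO against Cis KO, against 32.2%. These fits leave 1 Cis KO library, which is assumed to vary like the other groups.

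**Figure D5:**
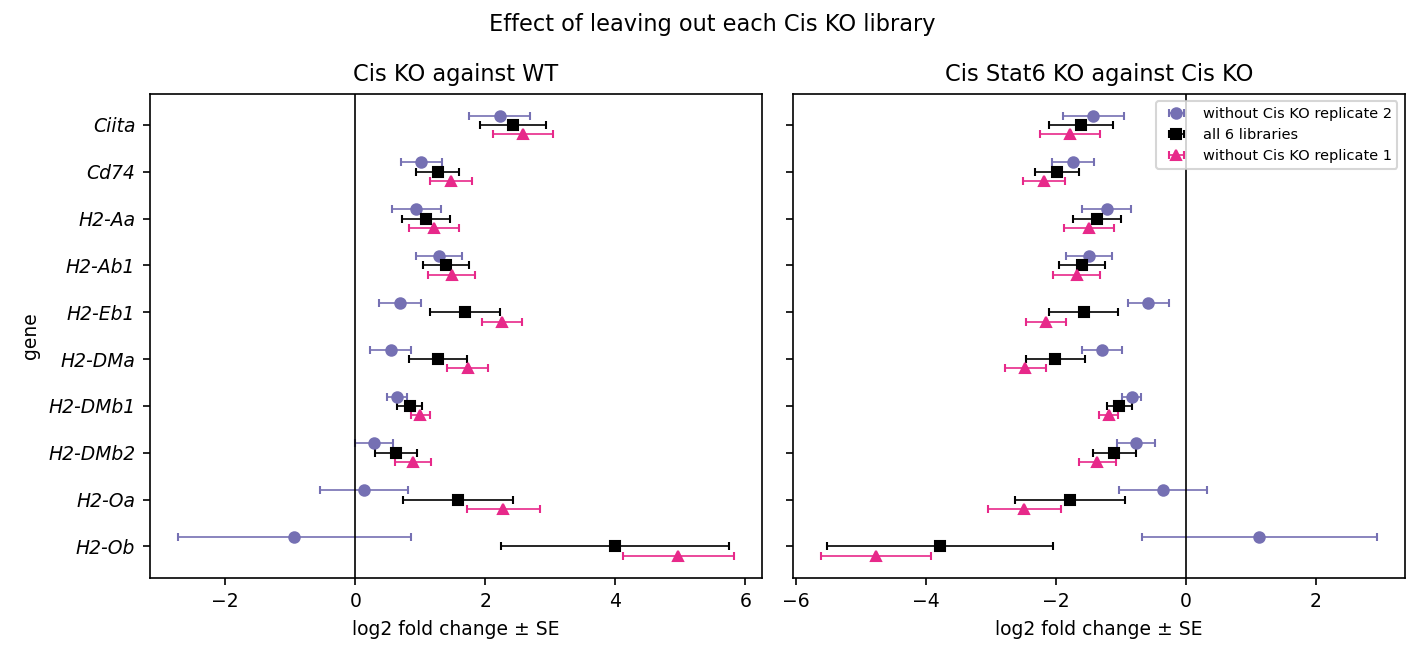
edgeR log2 fold changes with SE of the 10 genes with all 6 libraries and with either Cis KO library left out. Ciita, Cd74, H2-Aa and H2-Ab1 move little, while H2-Ob in Cis KO against WT is 3.99 with all libraries and -0.94 without the second.

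Of the 7 promoter factors (Rfx5, Rfxap, Rfxank, Nfya, Nfyb, Nfyc and Creb1), 0 were called in any comparison. At an unadjusted p under 0.05, edgeR counted 0 of them in Cis KO against WT, 1 in Cis Stat6 KO against Cis KO and 0 in Cis Stat6 KO against WT, and DESeq2 called 0 in each. Their median log2 fold change in Cis KO against WT was -0.04, against -0.05 over all genes. Rfx5, the DNA-binding RFX subunit, had 11.2 and 9.15 CPM in Cis Stat6 KO, 15.3 and 4.25 CPM in Cis KO and 13.4 and 11.9 CPM in WT. Of 15 tested genes upstream of Ciita, edgeR called only Stat6, the gene targeted in Cis Stat6 KO, so this call follows from the genotype. Stat6 was lower in Cis Stat6 KO than in Cis KO (-3.09 ± 0.20, adjusted p = 0.0061 by edgeR) and than in WT. In Cis Stat6 KO against Cis KO, DESeq2 also called Irf8 lower and Ifngr2 higher. It called 0 of the list in Cis KO against WT. At an unadjusted p under 0.05, edgeR counted 2 there, 4 in Cis Stat6 KO against Cis KO and 4 in Cis Stat6 KO against WT. The 2 were Spi1, higher in Cis KO, and Irf1, lower in Cis KO. Irf1 had 60.4 and 52.8 CPM in Cis Stat6 KO, 56.8 and 50.3 CPM in Cis KO and 78.8 and 74.6 CPM in WT. Spi1, a macrophage transcription factor, had 368 and 329 CPM in Cis Stat6 KO, 435 and 968 CPM in Cis KO and 378 and 374 CPM in WT, with the higher Cis KO value in the second library.

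The 8 endosomal processing genes, which cut proteins and the invariant chain into peptides, had 0 called in each comparison, with 1, 4 and 1 at an unadjusted p under 0.05 in Cis KO against WT, Cis Stat6 KO against Cis KO and Cis Stat6 KO against WT. DESeq2 called 0, 1 and 1 (Lgmn, a lysosomal endopeptidase, at 298 and 291 CPM in Cis Stat6 KO, 189 and 200 CPM in Cis KO and 169 and 173 CPM in WT). Ctss, the protease that trims the invariant chain, had 3100 and 3501 CPM in Cis Stat6 KO, 3372 and 2862 CPM in Cis KO and 2920 and 3369 CPM in WT, with all groups overlapping. Of 7 genes of class II turnover and co-stimulation 0 were called in each comparison, with 1, 2 and 1 at an unadjusted p under 0.05 in the same order. Marchf1, a ubiquitin ligase that removes class II from the surface, had 11.2 and 10.4 FPKM in Cis Stat6 KO, 5.50 and 1.46 FPKM in Cis KO and 6.35 and 8.11 FPKM in WT. Cis KO was lowest and Cis Stat6 KO highest, with adjusted p = 0.456 in Cis KO against WT and 0.191 in Cis Stat6 KO against Cis KO by edgeR. DESeq2 called Marchf1 higher in Cis Stat6 KO than in Cis KO, and Il10 lower in Cis KO than in WT. Il10 had 0 and 8 counts in Cis Stat6 KO, 0 and 0 in Cis KO and 10 and 156 in WT, so that call compares a group at 0 with a group in which the second WT library holds most counts.

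Genes that share the spaced boxes or the locus were also read from the fit. Of the non-member genes with GCAAC 20 to 40 bases before TGATTGG, 29 were tested and 0 were called in any comparison (edgeR counted 1, 4 and 0 at an unadjusted p under 0.05 in Cis KO against WT, Cis Stat6 KO against Cis KO and Cis Stat6 KO against WT), with medians of -0.21 in Cis KO against WT and 0.07 in Cis Stat6 KO against Cis KO. DESeq2 called 1 of them, Ccdc189, in Cis Stat6 KO against Cis KO. Of the 6 tested non-member genes in the class II interval, 0 were called, with 0, 2 and 0 at an unadjusted p under 0.05 in the same order, and DESeq2 called 0. Their median log2 fold change was 0.39 in Cis KO against WT, with 5 of the 6 above 0. In Cis Stat6 KO against Cis KO it was -0.53, with 1 of the 6 above 0. Psmb8, an immunoproteasome subunit encoded in this interval, had a log2 fold change of 0.67 ± 0.31 in Cis KO against WT and -0.90 ± 0.31 in Cis Stat6 KO against Cis KO.

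The genes nearest in pattern to the mean of H2-Aa, H2-Ab1, H2-Eb1 and Cd74 were ranked by the root mean square difference of centred log2 CPM, among 9078 candidates of at least 5 CPM. Over 6 libraries they were Thbs3 at 0.188, Map4k1 at 0.230, Rogdi at 0.254, Coro1a at 0.259, Pold1 at 0.262, Rpp25l at 0.265, Krt19 at 0.268 and Pgap3 at 0.275. Over the 5 libraries without the second of Cis KO they were Plxnb3 at 0.143, Ercc2 at 0.190, Thbs3 at 0.202, Pgap3 at 0.211, Acp6 at 0.224, Ccnd3 at 0.231, Pars2 at 0.232 and Rhof at 0.236. Thbs3 and Pgap3 were on both lists. Over 6 libraries H2-Ab1 was at 0.135, H2-Aa at 0.146 and Cd74 at 0.207. H2-Eb1, itself in the profile, was at 0.332, the 3 H2-DM genes at 0.361 to 0.381, Ciita at 0.601, H2-Oa at 0.747 and H2-Ob at 1.57, all farther from it than these 8 non-member genes.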

How the data were processed

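The authors deposited, for each library, raw counts per gene and FPKM values, which per the file headers are reads per gene and those reads scaled by gene length and library total. The submitters' processing notes name build mm10. No source used here gives the aligner, the counter or the strandedness. Counts were tested with edgeR 4.0.16 (R 4.3.3): 1 fit over 6 libraries with the genotype as factor, TMM scaling, filterByExpr (16765 genes kept), the quasi-likelihood F test, two-sided, with Benjamini-Hochberg adjustment over all tested genes. A gene is called at an adjusted p under 0.05. SE is the log2 fold change over the square root of F. The common biological coefficient of variation was 50.3%, on 3 residual degrees of freedom. The script was checked on simulated data drawn with less spread than these data. That check does not measure recovery at the spread of these data. Alternatives used DESeq2 1.42.0, limma 3.58.1 (voom, and log2(FPKM + 1) or log2(FPKM + 0.1) with at least 0.5 FPKM in 2 libraries), other scalings and filters, the replicate number as a block and each library left out.

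The 10 genes, the lists and the motifs were chosen with earlier results of these data known. The text names all 10 genes, genes from each list that were called or among its 6 with the highest mean CPM, defining B cell and dendritic cell genes, and the 8 genes nearest in pattern. Psmb8, Irf1, Lgmn, Jchain, Fabp4, Ccl22, Ccr7, Fscn1 and the genes DESeq2 called were chosen for naming after their values were seen. An item that the rule names is not reported here. Promoters come from RefSeq (GRCm38.p6), transcripts from GENCODE M21. Counts of genes that overlap on opposite strands are uncertain.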

Additional observations from a re-analysis of the deposited data

How the results depend on the processing

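With all 6 libraries, the number of the 10 genes called in Cis KO against WT was 7 for edgeR with no filter and 5 for DESeq2. It was 0 for edgeR on filtered counts. In Cis Stat6 KO against Cis KO it was 7 for edgeR with no filter and 8 for DESeq2. For limma on log2(FPKM + 1) it was 1 of the 8 tested. It was again 0 for edgeR on filtered counts. In Cis Stat6 KO against WT it was 0 throughout. The causes were not tested. Over all genes, edgeR called 46, 60 and 22 in Cis KO against WT, Cis Stat6 KO against Cis KO and Cis Stat6 KO against WT, against 1021, 1840 and 385 with no filter, 534, 1474 and 320 with DESeq2, 26, 29 and 20 without scaling, 6, 5 and 277 with only the groups compared, and 24, 28 and 12 with the replicate block, which called 0 of the 10 genes in each. Same-numbered libraries did not deviate together (correlations of 0.013, -0.032 and -0.065 over 16765 genes). With 2 libraries a group, this check cannot settle whether the numbers pair samples, and the labels do not say.

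With 1 library left out, H2-Ob lay between -0.94 and 5.41 in Cis KO against WT and between -4.77 and 1.13 in Cis Stat6 KO against Cis KO, turning sign without Cis KO replicate 2, where the medians of the 10 were 0.67 and -1.03. In Cis Stat6 KO against WT, 5 genes turned sign when 1 library was left out. H2-Ob lay between -0.51 and 1.63 (-0.36 without Cis Stat6 KO replicate 2 and -0.51 without WT replicate 2), and was -0.32 with the replicate block. H2-Oa lay between -0.70 and 0.22 and H2-Eb1 between -0.23 and 0.55, turning without Cis Stat6 KO replicate 1 or WT replicate 2. H2-Aa lay between -0.74 and 0.19 and H2-Ab1 between -0.65 and 0.21, turning without Cis Stat6 KO replicate 2 or WT replicate 1. Of 175 values per comparison, 154, 146 and 164 kept their direction and their side of the threshold. H2-Ob, with 6 to 23 counts in 5 libraries, is limited by depth.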
